A study of Mus musculus with 9 samples.

Results

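Transcripts of 7 transcription regulators that steer blood progenitors toward or away from the myeloid fate, other than the C/EBP family, were followed across 3 sorted progenitor populations. The genes are Spi1, Gfi1, Gfi1b, Id2, Runx1, Myb and Klf4. Every probe set of the array (a group of short probes read as 1 measurement) that carries exactly 1 gene symbol, and that symbol is one of these, was taken, which gave 17 of 45101 probe sets, for 7 of 18193 genes. Spi1, Gfi1 and Gfi1b had 1 probe set each, Klf4 had 2, Id2 and Myb had 3 each and Runx1 had 6. The choice was made by gene name and used no measured value. Of the 17, 16 lay above the background limit on all 9 arrays, and the exception was Id2 1453596_at.

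These proteins form a network that sets lineage choice in the bone marrow. Runx1 and Myb maintain stem and progenitor cells. Runx1 also opens the enhancers of Spi1, whose product PU.1 drives the macrophage and granulocyte programmes in a dose-dependent way. Gfi1 and Gfi1b encode closely related zinc finger repressors that recruit the LSD1 demethylase; Gfi1 is needed for neutrophils and counters PU.1, while Gfi1b is needed for red cells and platelets. Id2 sequesters the E proteins that drive lymphoid fate, and Klf4 acts downstream of PU.1 in monocytes.

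Each population was measured on 3 arrays from 6-week-old mice whose Ncstn alleles were floxed on both chromosomes. Ncstn encodes nicastrin, a subunit of the γ-secretase protease that releases the active part of Notch receptors. LSK WT are lineage-negative, cKit+, Sca1+ cells, the fraction that holds stem and multipotent progenitors, and GMP WT are granulocyte-monocyte progenitors (lineage-negative, cKit+, Sca1-, CD34+, FcγRII/III+), both from mice without Cre. GMP NcstnKO are the same GMP fraction from littermates that also carried Mx1-cre, a Cre gene under an interferon-inducible promoter that acts in the whole blood system and in other interferon-responsive tissues. All mice, controls included, received polyIC, which induces interferon, 3 times from 14 days of age at 20 µg per g of body weight and were analysed 4 weeks later. Since only the knockouts carried Mx1-cre, the transgene and the loss of nicastrin cannot be told apart. The labels do not say whether each array came from a separate animal. The labelled sex was mixed within LSK WT and within GMP NcstnKO, and Xist and Eif2s3y transcripts marked both sexes within LSK WT and within GMP WT. By the transcripts, LSK WT and GMP WT each held more than a single animal. For GMP NcstnKO only the labelled sex gives such a sign. The transcripts were female on all 3 of its arrays, so more than a single knockout animal is not shown. The p-values measure the spread between these arrays, which may in part be technical.

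The Ncstn probe set 1418570_at read 9.25, 9.31 and 9.26 (log2 intensity) in GMP WT and 7.79, 7.78 and 7.76 in GMP NcstnKO, a difference of -1.50 (SE 0.08, limma adjusted p = 0.00132), while the other Ncstn probe set, 1444532_at, differed by 0.13 (adjusted p = 0.753). Median intensities were 98.3 to 103 per array in LSK WT and 65.4 to 68.6 in the 6 GMP arrays, and the median log2 difference over all probe sets between GMP WT and LSK WT was -0.20. Quantile normalization of the arrays moved that median to 0.06, and centring each array on its 75th percentile moved it to 0.15. The split of the called probe sets, 2722 higher and 12988 lower, became 7912 and 5802 under the former and 12188 and 5832 under the latter. Xist and Eif2s3y transcripts marked 1 of 3 LSK WT, 1 of 3 GMP WT and 3 of 3 GMP NcstnKO arrays as female, against the labelled sex on 2 GMP WT and 2 GMP NcstnKO arrays. The log2 ratio of 3' to 5' Actb control probe sets, a sign of RNA quality, was 0.663 to 0.870 in LSK WT, 0.500 to 0.705 in GMP WT and 0.809 to 1.06 in GMP NcstnKO. Of 8 GMP gate and granule genes, 6 were higher in GMP WT than in LSK WT (Kit and Cd34 were lower), and 7 of 7 measured LSK genes were lower. Of all genes, 6.92% were called higher and 29.2% lower across this step. Markers of other cells differed across this step too: 8 of 8 late neutrophil markers (summed intensity 66458 to 87185 in LSK WT, 32875 to 43276 in GMP WT) and 6 of 10 lymphoid and B lineage markers were lower in GMP WT, and 6 of 6 mast cell, basophil and eosinophil markers were higher. Of 8 monocyte markers, 5 were higher and 1 lower (summed intensity 14942 to 19261 in LSK WT, 21770 to 28073 in GMP WT). Of 8 megakaryocyte markers 6 were lower, and of 5 T and NK markers 3 were lower and 1 higher. In LSK WT, a lineage-negative fraction, the late neutrophil sum was thus above that of either GMP group (46492 to 52727 in GMP NcstnKO), and the part of these markers in the differences from LSK WT was not tested.

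The start regions of the genes whose values moved most are shown first, because the members of this network are known to bind one another's genes. Start regions of 6 of the 7 genes were matched in RefSeq (build GRCm38.p6), all on the minus strand, with 2 start windows each for Gfi1 and Runx1; Spi1 is named only. Printed are the 250 bases upstream of the annotated start, 5′ to 3′ on the gene's strand, with capitals marking every match, on either strand, to 6 core motifs: GAGGAA (PU.1), AAATC (GFI1 and GFI1B), TGTGGT (RUNX), AACTG (MYB), CACCC (KLF) and GATAA (GATA). The regions are chr2:28621983-28622232 for Gfi1b, chr5:107725806-107726055 for the upstream start of Gfi1, and chr16:92826075-92826324 and chr16:92697330-92697579 for the distal and proximal starts of Runx1.
Gfi1b: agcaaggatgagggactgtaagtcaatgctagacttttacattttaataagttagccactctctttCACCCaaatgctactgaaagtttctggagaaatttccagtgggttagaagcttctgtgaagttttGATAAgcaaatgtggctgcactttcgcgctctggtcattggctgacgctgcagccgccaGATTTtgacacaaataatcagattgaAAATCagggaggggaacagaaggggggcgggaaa
Gfi1, upstream start: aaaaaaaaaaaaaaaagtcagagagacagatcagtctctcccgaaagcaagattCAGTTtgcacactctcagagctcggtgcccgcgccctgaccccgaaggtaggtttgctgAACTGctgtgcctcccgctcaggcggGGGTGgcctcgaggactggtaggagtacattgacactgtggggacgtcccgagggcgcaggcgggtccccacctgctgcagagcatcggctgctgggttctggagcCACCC
Runx1, distal start: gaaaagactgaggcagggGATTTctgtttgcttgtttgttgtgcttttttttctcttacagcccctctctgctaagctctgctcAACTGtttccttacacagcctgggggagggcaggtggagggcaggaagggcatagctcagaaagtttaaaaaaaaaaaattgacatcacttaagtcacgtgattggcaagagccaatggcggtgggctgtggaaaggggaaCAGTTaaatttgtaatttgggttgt
Runx1, proximal start: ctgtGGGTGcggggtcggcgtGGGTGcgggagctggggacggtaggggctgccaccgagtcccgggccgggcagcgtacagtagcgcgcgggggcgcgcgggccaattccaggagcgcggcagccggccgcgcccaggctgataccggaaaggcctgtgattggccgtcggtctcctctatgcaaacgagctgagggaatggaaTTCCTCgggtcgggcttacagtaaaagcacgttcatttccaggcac
Positions are those of a match's first base on the gene's strand, counted back from -1 just upstream of the start. The Gfi1b region held the GFI1 and GFI1B core at -60 (on the opposite strand) and -34, a KLF core at -184 and a GATA core at -119. The upstream Gfi1 region held MYB cores at -196 (opposite strand) and -137 and KLF cores at -111 (opposite strand) and -5, and none of the 6 motifs matched in the window at the other Gfi1 start. The distal Runx1 region held a GFI1 and GFI1B core at -232 (opposite strand) and MYB cores at -166 and -25 (the latter on the opposite strand). Just inside its first exon lay a pair of RUNX cores on the opposite strand, 8 bases apart, shown here as bases 26 to 45 after the start.
Runx1, distal, within the transcript: acaACCACAgaACCACAagt
The proximal Runx1 region held a PU.1 core at -46 and KLF cores at -246 and -229, all on the opposite strand. Such short motifs are common: of 32841 windows of 300 bases in the table, 28.28% held the PU.1 core, 35.86% the GFI1 and GFI1B core, 16.76% the RUNX core, 44.81% the MYB core, 57.53% the KLF core and 25.41% the GATA core. A match is a description of the letters and not a binding site.

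**Figure D1:**
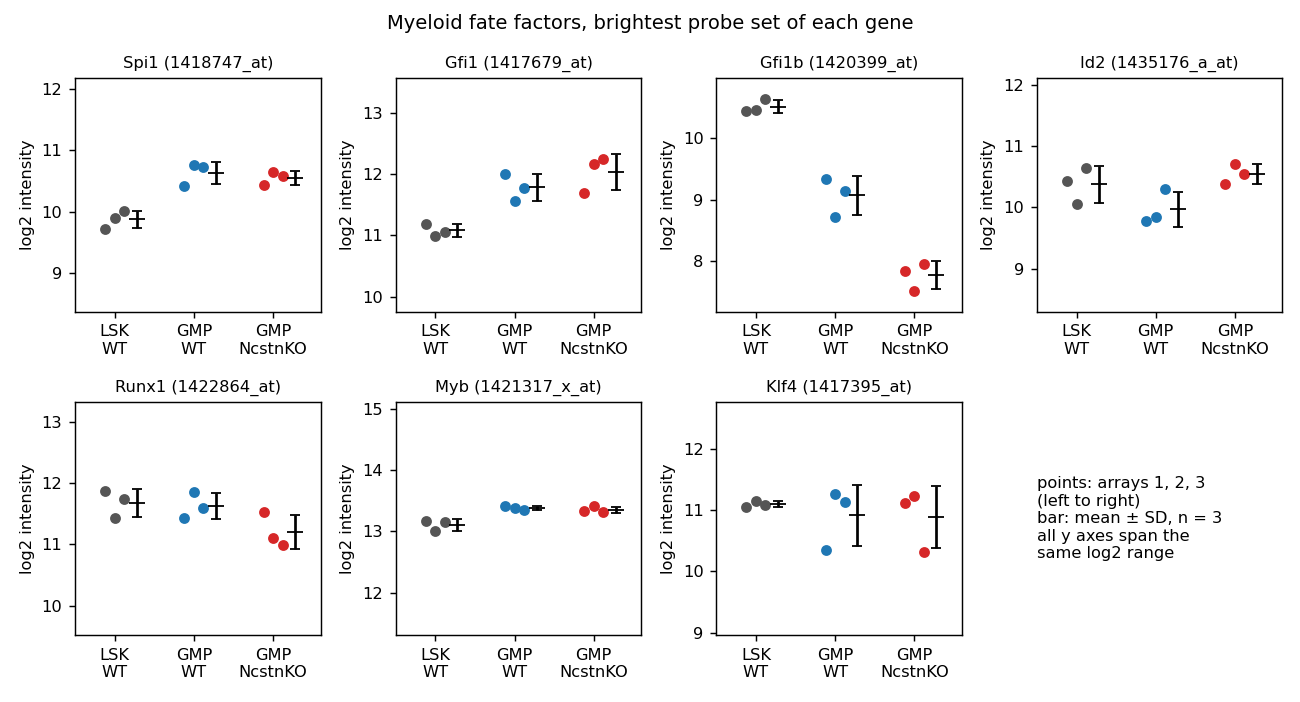
Log2 intensity (y axis) of the brightest probe set of each of the 7 genes on the 3 arrays of each group (x axis), with bars for the mean ± SD (n = 3) and y axes that span the same range. Gfi1b stepped down from 10.51 in LSK WT to 9.07 in GMP WT and 7.77 in GMP NcstnKO, while Spi1, Gfi1 and Myb lay higher in GMP WT than in LSK WT.

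Between LSK WT and GMP WT, the step from multipotent cells to committed myeloid precursors, Spi1, Gfi1 and all 3 Myb probe sets rose and Gfi1b fell. Of the 17 probe sets, 6 were called at an adjusted p under 0.05, 5 higher and 1 lower, where 34.9% of all probe sets were called, 6.04% higher and 28.8% lower. Those shares depend on the scaling. Of 45037 probe sets, 7912 were higher and 5802 lower after quantile normalization, and 12188 and 5832 after centring on the 75th percentile. All shares of genes or probe sets given here and below are for the deposited scale, also where counts under another scaling stand beside them. The groups did not overlap for 7 of the 17, against 51.8% of all. Between GMP WT and GMP NcstnKO, Gfi1b fell again and was the only member called, 1 of 17 where 1.75% of all probe sets were called, 0.604% higher and 1.15% lower. There the groups did not overlap for 5 of the 17, which were Gfi1b, a pair of Id2 and a pair of Runx1 probe sets, against 27.2% of all. Each pair of comparisons shares a group of arrays, so their values are given side by side and are not independent.

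Spi1, which encodes the myeloid master regulator PU.1, was read by 1418747_at. Its log2 intensity was 9.73, 9.90 and 10.01 in LSK WT, 10.42, 10.76 and 10.72 in GMP WT, and 10.43, 10.64 and 10.58 in GMP NcstnKO. Every GMP array of either genotype lay above every LSK WT array, and the GMP groups overlapped. The rise from LSK WT (9.88 ± 0.141, SD, n = 3) to GMP WT (10.64 ± 0.184) was 0.76 on the log2 scale, or 1.69-fold (SE 0.12, limma adjusted p = 0.00234). GMP NcstnKO differed from GMP WT by -0.09 (95% interval -0.37 to 0.20, adjusted p = 0.754) and from LSK WT by 0.67 (adjusted p = 0.00284). The call between GMP WT and LSK WT was kept without any 1 array.

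Genes that PU.1 is known to activate were called in both directions as Spi1 rose. Of 20 measured, 4 were higher and 6 lower in GMP WT than in LSK WT, with a median of -0.01, where 36.2% of all genes were called, 6.92% higher and 29.2% lower (each gene read by its brightest probe set). Quantile normalization gave 5 and 4 (median 0.25), and centring on the 75th percentile gave 9 and 3 (median 0.33), where the median of all probe sets was 0.15. The neutrophil elastase gene Elane rose by 1.18 (SE 0.10, adjusted p = 0.000108), and Mpo, the myeloperoxidase gene, by 0.39 (adjusted p = 0.00696). The Fc receptor gene Fcgr3, part of the GMP gate itself, rose by 1.10. The integrin gene Itgb2 fell by 1.69 and the interleukin-7 receptor gene Il7r, a lymphoid PU.1 target, fell by 2.84. In GMP NcstnKO against GMP WT, where 2.31% of all genes were called (0.846% higher and 1.46% lower), 0 of the 20 were called by limma. At an unadjusted p under 0.05 were 2 of the 20, against 23.3% of all genes: the macrophage gene Adgre1 (-1.16, adjusted p = 0.115) and Fcgr1 (1.09, adjusted p = 0.142). Of 5 resident macrophage markers, Adgre1 among them, 2 were lower in GMP NcstnKO, C1qa (-0.91, adjusted p = 0.0392) and C1qc (-1.46, adjusted p = 0.0209), and the median was -1.16. Their summed intensities overlapped, at 1748 to 2895 in GMP WT and 1438 to 3492 in GMP NcstnKO. The number called was 2 without GMP WT array 2, 1 without NcstnKO array 1 and 0 without any of the other GMP arrays, and the part of these markers in the Adgre1 value was not tested.

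The other ETS factors, relatives of PU.1 that share its DNA-binding domain, were lower in GMP WT than in LSK WT for 7 of 13 measured and higher for 0 (of all genes, 29.2% and 6.92%). Quantile normalization gave 6 lower and 1 higher, centring on the 75th percentile gave 3 and 1 (median -0.05), and 4 were lower without GMP WT array 1, GMP WT array 3 or LSK WT array 2. Erg, a stem cell factor, fell by 1.63 (SE 0.13, adjusted p = 9.77e-05), and Etv6 fell by 0.47 (adjusted p = 0.0129). In GMP NcstnKO against GMP WT, 0 of the 13 were called, but 8 had an unadjusted p under 0.05, where 23.3% of all genes did, and the median was -0.43, beside 0.04 over all probe sets. Etv6 differed there by -0.53 (adjusted p = 0.0552), Elf4 by -1.07 (adjusted p = 0.0581), Elk4 by -0.44 (adjusted p = 0.0683) and Ets2 by -0.51 (adjusted p = 0.0728).

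Gfi1, the repressor that neutrophil precursors need, was measured by 1417679_at. It read 11.19, 10.99 and 11.06 in LSK WT, 12.00, 11.56 and 11.77 in GMP WT, and 11.70, 12.17 and 12.24 in GMP NcstnKO. All GMP arrays lay above all LSK WT arrays, and the lowest NcstnKO array lay within the range of GMP WT. The rise from LSK WT (11.08 ± 0.0987) to GMP WT (11.78 ± 0.219) was 0.70, or 1.63-fold (SE 0.17, adjusted p = 0.0125). The call was kept without any 1 array and was lost with the Actb ratio as a covariate (0.59, adjusted p = 0.0772). GMP NcstnKO (12.03 ± 0.296) differed from GMP WT by 0.26 (95% interval -0.13 to 0.64, adjusted p = 0.443) and from LSK WT by 0.96, or 1.94-fold (adjusted p = 0.00216).

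Gfi1b, the paralogue needed for erythroid and megakaryocyte development, took the opposite course. Its probe set 1420399_at read 10.44, 10.47 and 10.63 in LSK WT, 9.34, 8.72 and 9.14 in GMP WT, and 7.84, 7.51 and 7.95 in GMP NcstnKO. The 3 groups did not overlap: the lowest LSK WT array stood 1.10 above the highest GMP WT array, and the lowest GMP WT array 0.775 above the highest NcstnKO array. Gfi1b fell by 1.45, or 2.72-fold, from LSK WT (10.51 ± 0.105) to GMP WT (9.07 ± 0.315; SE 0.17, adjusted p = 0.000554). In GMP NcstnKO (7.77 ± 0.226) it lay 1.30 below GMP WT, a 2.46-fold difference (log2 difference -1.30, SE 0.17, 95% interval -1.70 to -0.90, adjusted p = 0.0312). Against LSK WT the NcstnKO difference was -2.75, or 6.71-fold (SE 0.17, adjusted p = 2.77e-05).

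The direction of the Gfi1b difference between the GMP genotypes was the same under all 18 alternatives (-1.58 to -1.16), but leaving out a single array ended the call in 5 of 6 cases: GMP WT array 1 (adjusted p = 0.0508), GMP WT array 3 (0.133), or any NcstnKO array (0.0539, 0.0658 and 0.0628 for arrays 1, 2 and 3). The call also ended in the 6 GMP arrays fitted alone (adjusted p = 0.0805), with replicate number as a block (0.0518), and with the labelled sex (0.115), the sex by transcripts (-1.40, 0.105) or the Actb ratio (-1.58, 0.332) as a covariate. In the 5 arrays with female transcripts, of which 1 is GMP WT, the difference was -1.57. The 790 calls over all probe sets also fell, to 1 without GMP WT array 1, 2 without GMP WT array 3, and 177, 5 and 8 without NcstnKO arrays 1, 2 and 3. They fell to 0 with the Actb ratio, which did not overlap between the GMP genotypes (0.500 to 0.705 in GMP WT, 0.809 to 1.06 in GMP NcstnKO).

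Erythroid markers moved with Gfi1b in the same arrays. Their summed linear intensity (9 of 11 markers measured, all above background in every group) was 32883 to 40745 in LSK WT. It was 28502, 17669 and 25374 in GMP WT arrays 1, 2 and 3, and 11985, 10562 and 13108 in the NcstnKO arrays. Within each GMP genotype, array 2 was lowest both in this sum and in Gfi1b, and the genotypes did not overlap in either. In GMP NcstnKO, 4 of the 9 markers fell (1.46% of all genes did) and the median was -1.67. They were Ermap (-2.50), the erythroid factor gene Klf1 (-2.01), the water channel gene Aqp1 (-1.82) and the carbonic anhydrase gene Car2 (-1.24), with adjusted p of 0.0328 to 0.0334. None of the 9 was called without GMP WT array 1, GMP WT array 3 or any NcstnKO array, or with the Actb ratio, the sex by transcripts or the replicate block in the fit, and 5 were without GMP WT array 2. The median kept its sign throughout (-2.16 to -1.43). The megakaryocyte sum (8 of 9 markers measured) was 8782 to 12488 in LSK WT, 5841 to 7732 in GMP WT and 4526 to 5985 in GMP NcstnKO. Only the ranges of the GMP genotypes overlap. In GMP WT against LSK WT, 6 of these 8 markers were lower and 0 higher (of all genes, 29.2% and 6.92%), and the median was -0.71. In GMP NcstnKO against GMP WT, 1 of the 8 was lower, where 1.46% of all genes were, and the median was -0.47. That count was 0 of 8 with any 1 GMP array left out or after quantile normalization. Fewer cells of a type and less RNA per cell cannot be told apart in these bulk samples, and the part of the erythroid markers in the Gfi1b difference was not tested.

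**Figure D2:**
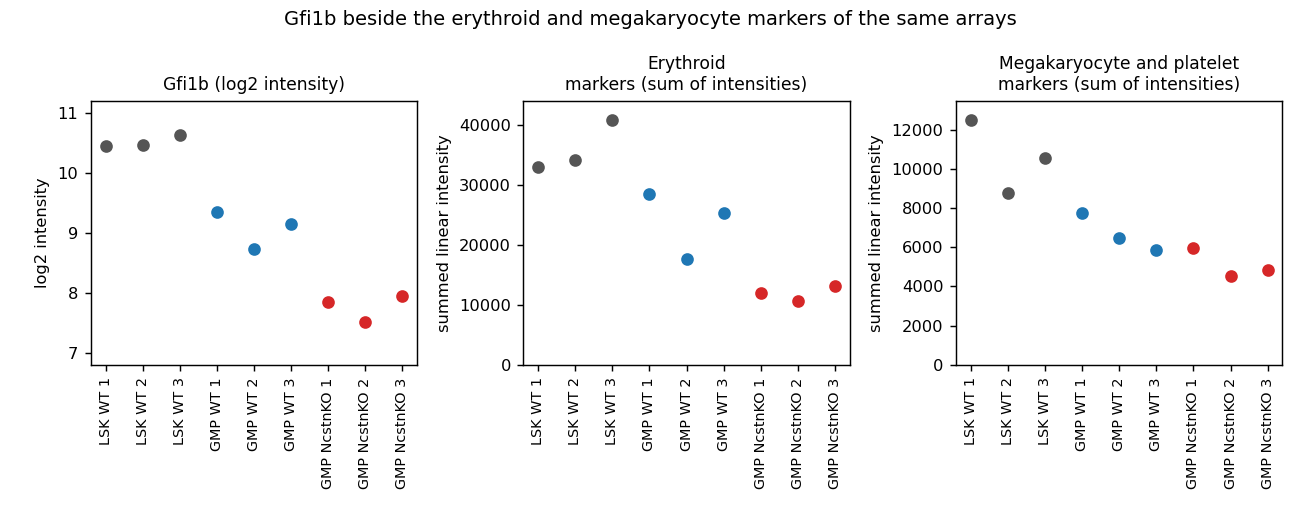
Gfi1b (log2 intensity, y axis not from 0), the summed linear intensity of 9 erythroid markers and that of 8 megakaryocyte and platelet markers (y axes from 0) on each of the 9 arrays (x axis; grey LSK WT, blue GMP WT, red GMP NcstnKO). Gfi1b and the erythroid sum are lowest in the 3 NcstnKO arrays, at 7.51 to 7.95 and 10562 to 13108, while the megakaryocyte sums of the GMP genotypes overlap.

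The other erythroid and megakaryocyte transcription factors, which act beside Gfi1b, were 0 higher and 5 lower of 6 in GMP WT against LSK WT (of all genes, 6.92% and 29.2%), and the median was -0.66. Of the 6, 2 were lower after quantile normalization, 1 after centring, and 2 or 3 with 1 array left out other than GMP WT array 1. Nfe2 fell by 0.51 (adjusted p = 0.00434), Klf1 by 1.45 (adjusted p = 0.00747) and Gata1 by 0.74 (adjusted p = 0.0399). In GMP NcstnKO, 1 of 6, Klf1, was lower than in GMP WT, where 1.46% of all genes were. Gata1, the erythroid master regulator, differed there by -0.57 (SE 0.24, adjusted p = 0.230), Gata2 by -0.50 (adjusted p = 0.192) and the Gata1 partner gene Zfpm1 by -1.15 (adjusted p = 0.102).

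The genes whose profile over the 9 arrays lay nearest to that of Gfi1b, by root mean square difference of log2 values centred on each gene's mean, were Epdr1, Abcb4 and Cyth3 among 14879 genes. Their differences were 0.161, 0.174 and 0.189. Epdr1 averaged 9.18 in LSK WT, 7.66 in GMP WT and 6.53 in GMP NcstnKO. Abcb4, a phospholipid transporter gene, averaged 10.63, 9.18 and 7.69 in the same order, and Cyth3, an exchange factor for ARF GTPases, 11.36, 10.15 and 8.98. They were picked for likeness, so no test applies.

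Genes that GFI1 is known to repress were mixed. Of 12 measured, 2 were higher and 5 lower in GMP WT than in LSK WT (of all genes, 6.92% and 29.2%), and the median was -0.88. Both other scalings gave 2 and 4, with a median of -0.48 (quantile) or -0.53 (75th percentile), and the 2 higher calls became 0 without GMP WT array 2, GMP WT array 3 or LSK WT array 1, and 1 without LSK WT array 2 or 3. The stem cell genes Meis1 and Hoxa9 fell by 2.52 (adjusted p = 0.00137) and 1.34 (adjusted p = 0.00128), while Irf8, a monocyte factor gene, rose by 0.95 (adjusted p = 0.0278). In GMP NcstnKO, 0 of the 12 were called by limma and 2 had an unadjusted p under 0.05 (23.3% of all genes did), Id1 (0.93, adjusted p = 0.0965) and Hoxa9 (0.53, adjusted p = 0.181). Irf8 differed by -0.19 (adjusted p = 0.755). Of the 7 subunits of the corepressor complex that GFI1 and GFI1B recruit, Rcor3 (-0.98) and Rcor2 (-1.52) fell in GMP WT against LSK WT. The subunit gene Rcor1 fell by 0.54 in GMP NcstnKO against GMP WT (adjusted p = 0.0498, a call that either other scaling ended), and Kdm1a, which encodes LSD1, was not called in either comparison.

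Id2, the inhibitor of E proteins, had its lowest mean in GMP WT on both probe sets that lay above background, but no Id2 probe set was called in any comparison. The brightest, 1435176_a_at, read 10.43, 10.05 and 10.64 in LSK WT, 9.77, 9.84 and 10.30 in GMP WT, and 10.37, 10.71 and 10.54 in GMP NcstnKO. All NcstnKO arrays lay above all GMP WT arrays, and LSK WT overlapped both. The NcstnKO difference from GMP WT was 0.57 (95% interval 0.14 to 1.01, adjusted p = 0.148), and that of GMP WT from LSK WT was -0.41 (adjusted p = 0.132). The probe set 1422537_a_at read 9.80, 9.18 and 10.05 in LSK WT, 8.71, 9.39 and 9.49 in GMP WT, and 9.58, 9.79 and 9.88 in GMP NcstnKO. There too the GMP genotypes did not overlap (0.55, adjusted p = 0.283), by a small gap between 9.49 and 9.58. The third, 1453596_at, read 4.12 to 5.41 over the 9 arrays and was above the background limit (4.30 to 4.57) on 2 LSK WT, 1 GMP WT and 1 NcstnKO array.

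Beside Id2, summed late neutrophil markers (8 of 9 measured) were 66458 to 87185 in LSK WT, 32875 to 43276 in GMP WT and 46492 to 52727 in GMP NcstnKO, without overlap, so that GMP WT was lowest in them as in Id2. The other groups did not match in this way. LSK WT was highest in these sums, but its Id2 means (10.38 on 1435176_a_at, 9.68 on 1422537_a_at) lay slightly below those of GMP NcstnKO (10.54 and 9.75). In GMP WT against LSK WT all 8 were called lower (median -1.43), where 29.2% of all genes were. Between the GMP genotypes all 8 differences were above 0 (median 0.50, or 0.27 without GMP WT array 1), and 0 of 8 were called by limma, with 3 at an unadjusted p under 0.05 (23.3% of all genes were). The part of these markers and of the Actb ratio in the Id2 values was not tested as a cause. With the Actb ratio as a covariate, GMP WT was lower than LSK WT on 1435176_a_at (-0.66, adjusted p = 0.0462) and 1422537_a_at (-0.90, adjusted p = 0.0216).

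Among the other ID proteins and the E proteins that they bind, 0 of 8 were higher and 6 lower in GMP WT than in LSK WT (of all genes, 6.92% and 29.2%). Quantile normalization gave 0 and 2, centring gave 1 and 1, and 1 or 2 were lower with any 1 array left out. Id3 fell by 2.48 (SE 0.41, adjusted p = 0.0024) and the E protein gene Tcf4 by 0.73 (adjusted p = 0.0201). In GMP NcstnKO, Tcf12, another E protein gene, fell by 0.47 (adjusted p = 0.0448). It was 1 of 8 called lower (0 after quantile normalization), where 1.46% of all genes were. Id1 differed there by 0.93 and Tcf4 by -0.57 (adjusted p = 0.158).

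Runx1, the core binding factor subunit that founds the blood system, gave different pictures on its 6 probe sets. The brightest, 1422864_at, read 11.87, 11.42 and 11.74 in LSK WT, 11.43, 11.86 and 11.60 in GMP WT, and 11.52, 11.10 and 11.00 in GMP NcstnKO, and all groups overlapped. On 1440878_at the values were 10.56, 10.55 and 10.47 in LSK WT, 9.89, 10.45 and 10.29 in GMP WT, and 9.66, 9.49 and 9.28 in GMP NcstnKO. Here the 3 groups stood apart in that order, by gaps between 10.47 and 10.45 and between 9.89 and 9.66. The NcstnKO difference on this probe set was -1.05, or 2.07-fold, against LSK WT (SE 0.16, adjusted p = 0.00101). Against GMP WT it was -0.73 (SE 0.16, adjusted p = 0.0572), which became a call (adjusted p = 0.0432) when the dimmest 40% of probe sets were left out.

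On 1422865_at, Runx1 read 9.54, 8.70 and 9.63 in LSK WT, 9.35, 9.73 and 9.73 in GMP WT, and 8.88, 9.07 and 8.63 in GMP NcstnKO. The GMP genotypes did not overlap (-0.74, adjusted p = 0.149), but LSK WT array 2 lay among the NcstnKO values. The other 3 probe sets, 1427650_a_at, 1452530_a_at and 1452531_at, differed between the GMP genotypes by -0.05, -0.24 and -0.11, with overlap on each. All 6 Runx1 differences between the GMP genotypes were thus below 0, from -0.74 to -0.05, and 0 were called by limma. Which transcripts or ends the probe sets read was not analysed here.

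In GMP WT against LSK WT, 0 of the 6 Runx1 probe sets were called, with differences from -0.31 to 0.31. That of 1440878_at (-0.31, adjusted p = 0.152) turned to 0.03 after centring on the 75th percentile. After quantile normalization the 3 dimmest, 1427650_a_at (0.63), 1452530_a_at (0.76) and 1452531_at (0.72), were called higher, so the direction of Runx1 across this step rested on the probe set and the scaling.

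**Figure D3:**
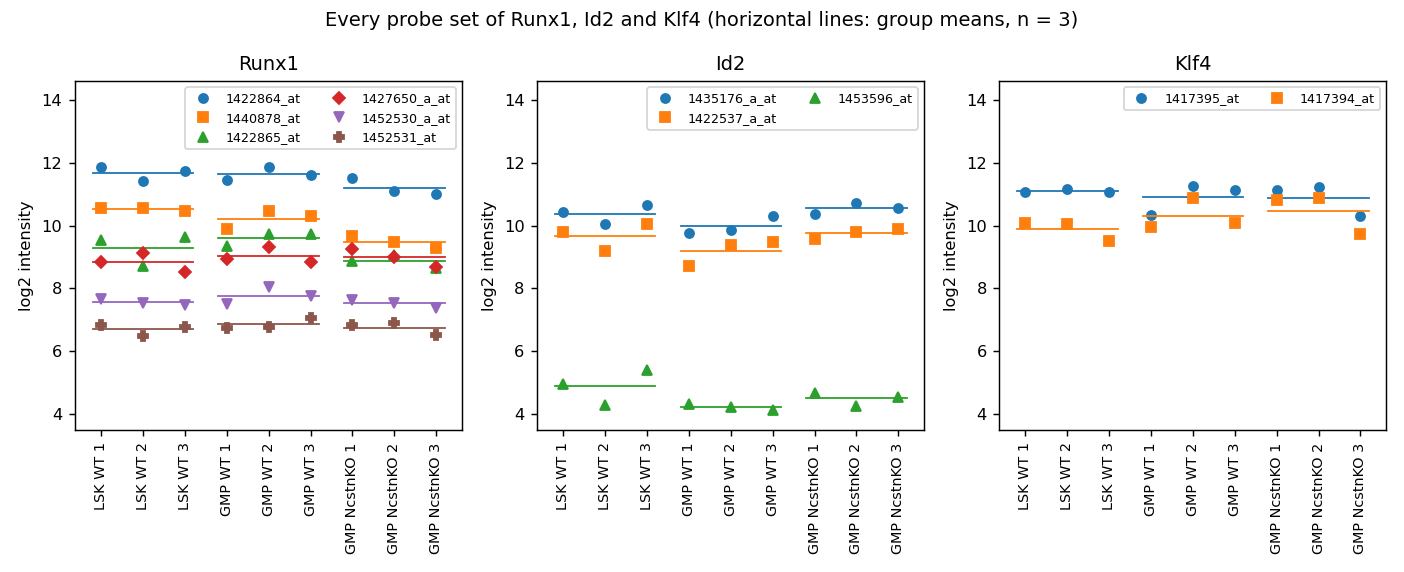
Log2 intensity (y axis) of every probe set of Runx1 (6), Id2 (3) and Klf4 (2) on each of the 9 arrays (x axis), with lines for group means (n = 3). Runx1 1440878_at and 1422865_at lie lower in the 3 NcstnKO arrays than in GMP WT while the other Runx1 probe sets overlap, and Id2 1453596_at stays between 4.12 and 5.41.

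Of the 5 measured partners and relatives of RUNX1, 0 were higher and 3 lower in GMP WT than in LSK WT (of all genes, 6.92% and 29.2%; 0 and 1 after quantile normalization, 1 and 1 after centring, and 1 lower without GMP WT array 1, GMP WT array 3 or LSK WT array 2). The largest of these differences was in Cbfa2t3, which encodes the corepressor ETO2 of erythroid cells and fell by 1.27 (SE 0.15, adjusted p = 0.000551). Cbfa2t3 fell by a further 0.79 in GMP NcstnKO against GMP WT (SE 0.15, adjusted p = 0.0472). It was 1 of 5 called lower (0 after quantile normalization), where 1.46% of all genes were. Runx3 differed there by -0.51 (adjusted p = 0.0529), and Cbfb, the partner that stabilises RUNX1 on DNA, by -0.20 (adjusted p = 0.332).

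Myb, a factor that keeps progenitors dividing, rose from LSK WT to GMP WT on all 3 probe sets. The brightest, 1421317_x_at, read 13.17, 12.999 and 13.15 in LSK WT, 13.41, 13.38 and 13.35 in GMP WT, and 13.33, 13.41 and 13.31 in GMP NcstnKO. On 1422734_a_at the values were 11.86, 11.00 and 11.82, then 12.45, 12.37 and 12.31, then 12.21, 12.32 and 12.19. Every GMP array lay above every LSK WT array on both, LSK WT array 2 was the lowest, and the GMP genotypes overlapped. The rise was 0.27 (adjusted p = 0.0356) on 1421317_x_at, 0.54 (adjusted p = 0.0371) on 1450194_a_at and 0.82, or 1.76-fold (adjusted p = 0.0171), on 1422734_a_at. GMP NcstnKO against LSK WT gave 0.25, 0.49 and 0.68 in the same order (adjusted p = 0.0438, 0.0431 and 0.0292), and against GMP WT -0.03, -0.05 and -0.14 (adjusted p = 0.763 to 0.909).

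The Myb rise kept its direction but rested on few arrays. For 1421317_x_at the call was lost without any 1 of the 6 arrays (adjusted p = 0.0536 to 0.0982), for 1450194_a_at without GMP WT array 1 (0.0943), 2 (0.0841) or 3 (0.0802), and for 1422734_a_at without GMP WT array 1 (0.0540). With the Actb ratio as a covariate all 3 were lost (adjusted p = 0.106 to 0.195), and all 3 were also lost with the labelled sex as a covariate. With replicate number as a block, which paired the LSK WT and GMP WT arrays, 1421317_x_at (adjusted p = 0.0657) and 1450194_a_at (0.0513) lost the call between GMP WT and LSK WT and 1422734_a_at kept it. The calls of GMP NcstnKO against LSK WT were no firmer: 1421317_x_at lost its call under 13 of 18 alternatives (without any 1 of the 6 arrays among them), 1450194_a_at under 8 of 16 and 1422734_a_at under 6 of 16. On those last probe sets leaving out any NcstnKO array ended the call (adjusted p = 0.0586 to 0.111).

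Of 8 genes that MYB is known to activate in progenitors, 3 were higher and 3 lower in GMP WT than in LSK WT (of all genes, 6.92% and 29.2%). Quantile normalization gave 3 and 3 again, but centring on the 75th percentile gave 5 and 0 and moved the median of the list to 0.53, so the lower calls depended on the scaling. With any 1 array left out, 1 or 2 were lower. Those higher were the granule protein genes Elane (1.18), Prtn3 (0.92) and Mpo (0.39), and those lower were the progenitor genes Lmo2 (-0.45), Kit (-0.49) and Cd34 (-0.40). In GMP NcstnKO, 0 of the 8 were called by limma and 2 had an unadjusted p under 0.05 (23.3% of all genes did), the survival gene Bcl2 (-0.54, adjusted p = 0.0806) and Cd34 (-0.41, adjusted p = 0.118). Of the 2 MYB relatives and 2 coactivators, Mybl2, a cell cycle relative, rose by 0.71 in GMP WT (adjusted p = 0.0178) and Ep300, a coactivator gene, fell by 0.48 (adjusted p = 0.0223), though 0 genes of this list were called lower under either other scaling. The other coactivator gene, Crebbp, fell by 0.70 in GMP NcstnKO against GMP WT (SE 0.12, adjusted p = 0.0383).

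Klf4, a monocyte factor that is also active in stem cells, was not called on either probe set in any comparison. On 1417395_at it read 11.06, 11.15 and 11.08 in LSK WT, 10.35, 11.26 and 11.13 in GMP WT, and 11.12, 11.24 and 10.31 in GMP NcstnKO. GMP WT array 1 and NcstnKO array 3 stood well below the other 7 arrays, and the groups overlapped. The NcstnKO difference from GMP WT was -0.02 with a 95% interval of -0.68 to 0.63 (adjusted p = 0.973), so differences within that range were not excluded with 3 arrays a group. On 1417394_at the values were 10.08, 10.05 and 9.52 in LSK WT, 9.97, 10.88 and 10.07 in GMP WT, and 10.82, 10.87 and 9.74 in GMP NcstnKO. The genotypes differed there by 0.17 (95% interval -0.63 to 0.98, adjusted p = 0.830), and GMP WT differed from LSK WT by 0.42 (adjusted p = 0.387) beside -0.18 (adjusted p = 0.662) on the first.

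The other KLF factors, zinc finger proteins that share the CACCC core, were 0 higher and 8 lower of 15 in GMP WT against LSK WT (of all genes, 6.92% and 29.2%). Quantile normalization gave 1 and 4, centring gave 2 and 3, and 5 were lower without GMP WT array 1, GMP WT array 3 or LSK WT array 2. One of the 8, Klf14, lay at background in all groups, and Klf12 (8.20 in LSK WT) lay at background in both GMP groups, so no fold is given. Klf3 fell by 1.24 (SE 0.22, adjusted p = 0.00332) and the stress-responsive Klf10 by 0.48 (adjusted p = 0.0201). In GMP NcstnKO, 2 of 15 were lower than in GMP WT (1.46% of all genes were), Klf16 (-0.65, SE 0.09, adjusted p = 0.0312) and Klf1 (-2.01, SE 0.31, adjusted p = 0.0328), and the median was -0.40.

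**Figure D4:**
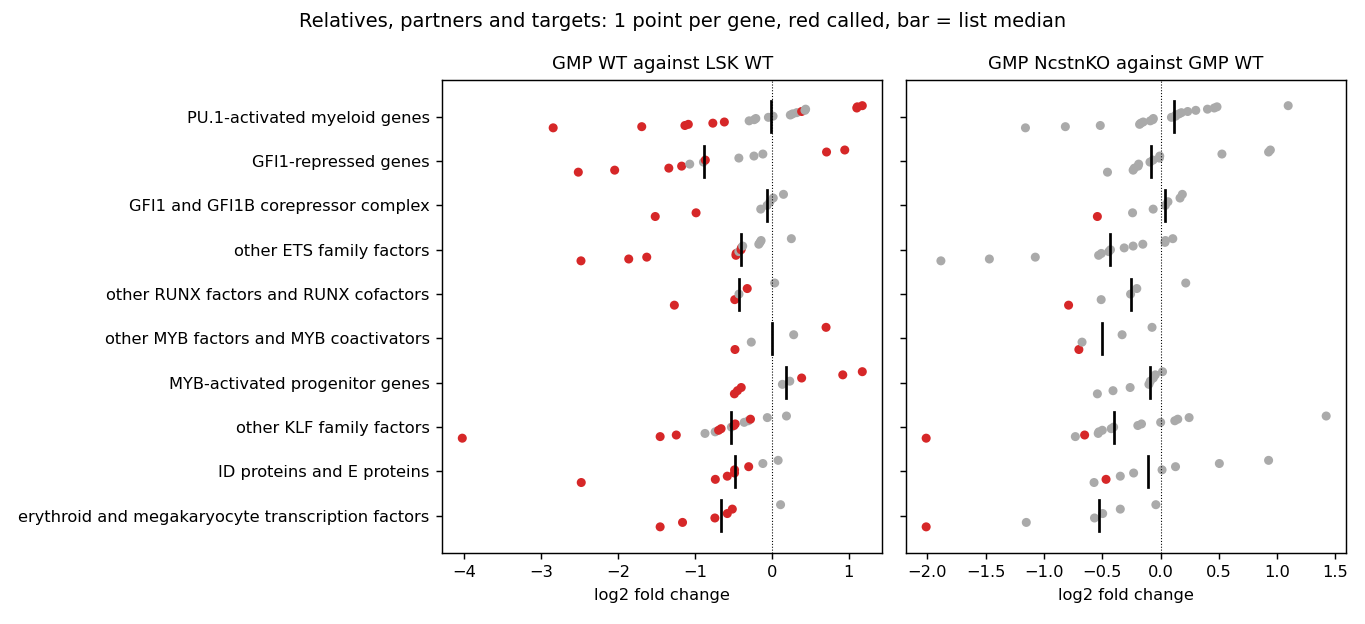
Log2 fold change (x axis; the panels differ in range) of each measured gene of the 10 lists of relatives, partners and targets, red where called, with a bar at the median of each list. In GMP NcstnKO against GMP WT the only called genes of these lists lie below 0 (of all genes, 1.46% were called lower and 0.846% higher), and the Klf12 value near -4 in the left panel is set against GMP arrays at background.

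The genes called between the GMP genotypes in the 10 lists were Rcor1, Tcf12, Cbfa2t3, Crebbp, Klf16 and Klf1, all lower, at 0 higher in every list. Lower calls were also the more frequent over all 18193 genes, at 266 lower (1.46%) and 154 higher (0.846%). The lists overlap (Klf1 is in 2 of them), and none of the calls was kept with the Actb ratio, the sex by transcripts or the replicate block in the fit. With 1 GMP array left out, none was kept except 1 gene of the KLF list and 1 of the erythroid and megakaryocyte list without GMP WT array 2.

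**Figure D5:**
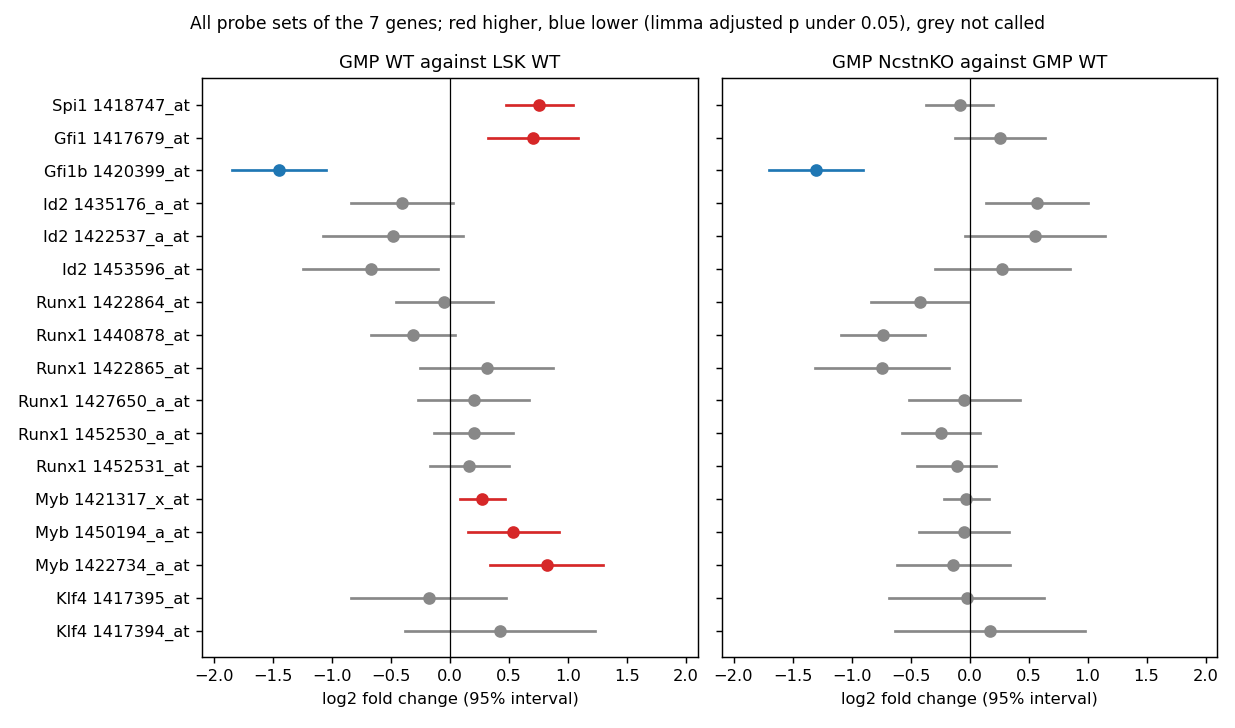
Log2 fold change with its 95% interval (x axis) for all 17 probe sets (y axis) in GMP WT against LSK WT and in GMP NcstnKO against GMP WT; red marks probe sets called higher, blue called lower and grey not called. Gfi1b is lower in both panels, at -1.45 and -1.30, and the 5 probe sets called higher on the left, of Spi1, Gfi1 and Myb, lie between -0.14 and 0.26 on the right.

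Set against LSK WT, GMP NcstnKO differed on 7 of the 17 probe sets, 5 higher and 2 lower, where 43.5% of all probe sets were called, 11.4% higher and 32.1% lower. The groups did not overlap for 7 of the 17, against 54.3% of all. The 5 higher were the probe sets of Spi1, Gfi1 and Myb that were also called in GMP WT against LSK WT, with the same LSK WT arrays in both. The 2 lower were Gfi1b and Runx1 1440878_at. Over the 17, the median difference was 0.07 for GMP NcstnKO against LSK WT, 0.20 for GMP WT against LSK WT and -0.05 between the GMP genotypes, beside -0.17, -0.20 and 0.04 over all probe sets.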

How the data were processed

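The authors deposited linear intensities per probe set, made with RMA (background correction, quantile normalization and probe summary). That is per the submitters' processing notes, which give no version. Whether the 9 arrays were normalized together is not given in the sources used here. Median intensities differed between the LSK WT arrays (98.3 to 103) and the GMP arrays (65.4 to 68.6). In every comparison with LSK WT, this offset in scale cannot be told apart from the population. Per the labels, 5 ng of total RNA was amplified and labelled with biotin. The log2 of the deposited intensities was taken, and 45037 probe sets that are not controls were tested 2-sided with the lmFit and eBayes functions of limma 3.58.1 (R 4.3.3) on 3 group means over 9 arrays, with 6 residual degrees of freedom, a fit tested on simulated data; every adjusted p is Benjamini-Hochberg over all of them, and called means under 0.05. Gene names came from the platform annotation.

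Named are all probe sets of the 7 genes and, from each list, the up to 4 genes of smallest p in each of the comparisons of GMP NcstnKO with GMP WT and of GMP WT with LSK WT, with Gata1, Klf1, Mpo and Irf8, each by its brightest probe set. Klf10, Klf14, Kdm1a, Tcf12, Kit and Cd34, and the called erythroid and macrophage markers, are named outside this rule, as members of a small count or after their values were seen. The members and lists were chosen with earlier results of these data known. The background limit is the 95th percentile of 27 bacterial control probe sets on each array. Depth does not apply to arrays, and their number limits the precision.

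The groups share replicate numbers 1 to 3. Deviations from group means of same-numbered LSK WT and GMP WT arrays correlated at 0.247, 0.247 and 0.296 over probe sets (other pairs -0.172 to -0.0899). By the data, and not by the labels, these look paired, while NcstnKO arrays do not (-0.0275 to 0.0320 with GMP WT). The reported tests did not use this pairing, which entered only in the alternative with replicate number as a block.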

Additional observations from a re-analysis of the deposited data

How the results depend on the processing

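Over the 17 probe sets and 3 comparisons, values were recomputed under each alternative: 687 kept their direction and side of the threshold, 66 lost a call, 20 gained one and 45 changed sign, of which 1 was called after the change. Members called between the GMP genotypes, 1 of 17, became 2 of 16 without the dimmest 40% of probe sets and 0 with the 2 groups alone, the labelled sex, the sex by transcripts, the Actb ratio, the replicate block or the female arrays only (an alternative added after the data were seen, with 1 LSK WT and 1 GMP WT array assumed to vary like NcstnKO), and 0 to 1 with an array left out. Members called in GMP WT against LSK WT, 6 of 17, became 3 with the labelled sex, 0 in the female arrays, 4 with the replicate block and 3 to 6 with an array left out (3 without GMP WT array 1). Members called in GMP NcstnKO against LSK WT, 7 of 17, became 4 with the 2 groups alone or the sex by transcripts, 4 of 7 with 1 probe set per gene or the mean of a gene's probe sets, 3 in the female arrays, 5 with the replicate block and 4 to 9 with an array left out (4 without NcstnKO array 2). Over all 45037 probe sets, the 790 calls between the GMP genotypes became 9 with the replicate block, 1 to 177 with an array left out, 1 with the labelled sex, 4 with the sex by transcripts, 2 with the 2 groups alone, 0 with the Actb ratio, 0 in the female arrays, 497 after quantile normalization, 1367 without the dimmest probe sets and 1295 with 16 added to each intensity. The 15710 calls in GMP WT against LSK WT became 6910 with 1 probe set per gene, 7456 with the mean of a gene's probe sets, 9379 without the dimmest, 10130 with the Actb ratio and 1764 in the female arrays, and the 19575 in GMP NcstnKO against LSK WT became 8523 and 8547 over genes and 7988 in the female arrays. None of the values that changed sign was called as reported. Between the GMP genotypes, Klf4 1417395_at became 0.075 as the mean of its probe sets, 0.0086 after centring, 0.072 with the labelled sex, 0.28 with the sex by transcripts and 0.17 with the Actb ratio; Spi1 became 0.095 with the sex by transcripts and 0.14 with the Actb ratio; Myb became 0.0048 after centring and 0.045 with the Actb ratio on 1421317_x_at, 0.054 and 0.23 with the labelled sex and the Actb ratio on 1450194_a_at, and 0.22 with the Actb ratio on 1422734_a_at; Runx1 became 0.092 with the labelled sex on 1427650_a_at and 0.051 with the Actb ratio on 1452531_at. In GMP WT against LSK WT, Runx1 1422864_at became 0.086 as the mean of its probe sets, 0.035 after quantile normalization and 0.30 after centring, Runx1 1440878_at 0.033 after centring, and Klf4 1417395_at 0.12 as the mean and 0.17 after centring. In GMP NcstnKO against LSK WT, Id2 became -0.052 and Klf4 0.19 as means of their probe sets, Klf4 1417395_at 0.18 after centring and 0.10 with the sex by transcripts, and Runx1 1452530_a_at 0.59 after quantile normalization (called, adjusted p = 0.0102), 0.34 after centring, 0.037 with the sex by transcripts and 0.023 with the Actb ratio. With an array left out, the values that changed sign ranged, between the GMP genotypes, from -0.024 to 0.55 (Klf4 1417394_at), -0.31 to 0.27 (Klf4 1417395_at), -0.18 to 0.10 (Runx1 1427650_a_at) and -0.18 to 0.0020 (Runx1 1452531_at); in GMP WT against LSK WT, from -0.17 to 0.051 (Runx1 1422864_at) and -0.36 to 0.10 (Klf4 1417395_at); and in GMP NcstnKO against LSK WT, from -0.051 to 0.17 (Runx1 1452531_at), -0.10 to 0.024 (Runx1 1452530_a_at), -0.38 to 0.084 (Klf4 1417395_at), -0.17 to 0.26 (Id2 1422537_a_at) and -0.00014 to 0.31 (Runx1 1427650_a_at). The cause of these changes was not tested, apart from the fewer arrays, degrees of freedom or probe sets that an alternative leaves. With 3 arrays a group, their number limits the precision, and Id2 1453596_at lay too near background for a level.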
